A study of Bubalus bubalis with 8 samples.

Results

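The transcripts described here are those that the authors of a buffalo oocyte and embryo series listed as new genes, outside their gene annotation, and that were present in the blastocyst. They were chosen by their measured blastocyst level, as all IDs of that kind at 10 FPKM or more there. FPKM stands for fragments per kilobase of transcript, scaled to the mapped fragments of each library. The rule found 219 of 10439 new-gene IDs, in a table of 28659 IDs. The other 18220 IDs in the table consist of the word gene and a number, and are called numbered IDs here. The 219 were then divided by their level in the oocyte. There were 75 with at least 10 FPKM in the immature or the mature oocyte library, called oocyte-expressed here, and 144 under that level in both, called embryo-new.

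The animals were water buffalo, Bubalus bubalis, and every embryo was made by parthenogenetic activation in vitro, in which an egg is triggered to develop with no sperm. One library each came from immature oocytes at the germinal vesicle stage (GV), mature oocytes at metaphase II (MII), the 2-cell, 4-cell, 8-cell and 16-cell embryo, the morula and the blastocyst. A parthenogenetic embryo carries no paternal genome, which limits it as a model of a fertilised embryo, and although the series speaks of single-cell sequencing, how many oocytes or embryos entered a library is unknown here. Since each stage has 1 library, the values carry no replicate error and no stages can be tested against each other; they describe these libraries.

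A mammalian oocyte is loaded with maternal RNA that carries the embryo through its first cleavages. That RNA is degraded while the embryo's own genome is switched on, a step that in cattle takes place mainly around the 8-cell to 16-cell stage. The morula then compacts, and the blastocyst separates the trophectoderm, the precursor of the placenta, from the inner cell mass. Oocytes and early embryos are known for many transcripts that gene annotations miss. In the mouse, a good part of these begin within long terminal repeats of retrotransposons that serve as promoters at these stages. A transcript outside an annotation may be a long non-coding RNA, a gene absent from that annotation, or an unjoined piece of a known gene. The table gives no sequence, coordinate, strand or gene name for the 219 IDs, so which of these each one is cannot be told here. For the same reason no marker of the blastocyst's cell types could be looked up.

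Unannotated transcripts were a far smaller part of the late libraries than of the oocyte. New-gene IDs contributed 7.16% of the summed FPKM at the GV stage, 3.28% at the 16-cell stage, 1.34% for the morula and 1.32% for the blastocyst. The number of new-gene IDs at 1 FPKM or more was 2990 to 4103 in each library up to the 16-cell embryo, but 724 for the morula and 681 for the blastocyst. FPKM sums were also unequal, from 892286 to 1162574 in the libraries up to the 16-cell embryo, and were 2501133 for the morula and 2239886 for the blastocyst. The part that these properties of the late libraries play in the results below was not tested.

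By contrast, the 219 transcripts held a larger share of the later libraries. Together they made up 0.721% of the FPKM sum at the GV stage, 0.851% at the 8-cell stage, 1.07% at the 16-cell stage, 1.18% for the morula and 1.24% for the blastocyst. From GV to blastocyst the gain lay in the 144 embryo-new ones (0.0160% and 0.610%), where the rule largely fixes it. The 75 oocyte-expressed ones had 0.705% and 0.627%. Numbered IDs chosen alike had 0.382% and 21.5% if embryo-new, and 72.9% and 76.1% if oocyte-expressed. The share of all new-gene FPKM held by the 219 was 10.1% at the GV stage, 14.6% at the 8-cell stage, 32.7% at the 16-cell stage, 88.3% for the morula and 93.5% for the blastocyst. The blastocyst share follows from the rule, which took every new-gene ID that was abundant there, but the morula value was not used to choose them. A demand for 10 FPKM in the blastocyst can still favour IDs that are high in the morula. Of the 229 new-gene IDs at 10 FPKM or more in the morula, 148 were among the 219 (64.6%). The corresponding share among numbered IDs was 84.2%, 4828 of 5737. For the 16-cell embryo the shares lay further apart, with 93 of 434 new-gene IDs (21.4%) and 4098 of 5832 numbered IDs (70.3%) at 10 FPKM or more in the blastocyst too. These shares were compared between kinds of ID within single libraries and were not tested.

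In the blastocyst the 219 transcripts spanned a wide range of levels, which the rule cut at its lower end. The lowest members had 10.15, 10.17 and 10.22 FPKM, and the highest new-gene IDs left outside had 9.95, 9.93 and 9.91 FPKM. Their median was 30.1 FPKM and the lower quartile 16.5 FPKM, and 109 of the 219 were under 30 FPKM. There were 45 at 100 FPKM or more, of which 22 were oocyte-expressed and 23 embryo-new. The 10 most abundant held 51.3% of the FPKM of all 219. None ranked among the 100 most abundant IDs of the blastocyst library, and 10 ranked among the top 500. For the oocyte boundary, the members just inside had a higher oocyte value of 10.05 and 10.17 FPKM, and those just outside had 8.81 and 8.13 FPKM.

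The split by oocyte expression depended on the limits. Of the 219, 34.2% had oocyte expression and 65.8% did not. With an oocyte limit of 1 FPKM in place of 10, 135 were oocyte-expressed and 84 embryo-new, and with a blastocyst minimum of 30 FPKM the counts were 51 and 59. Of the 5841 numbered IDs at 10 FPKM or more in the blastocyst, 71.1% had oocyte expression at the limit of 10. Seen from the oocyte, 1083 new-gene IDs were at 10 FPKM or more in the GV or MII library, and 75 of these (6.93%) were still at that level in the blastocyst. Among numbered IDs it was 60.2% of 6890. A level in a library of whole embryos does not tell fewer cells that carry a transcript from less of it in each cell.

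**Figure D1:**
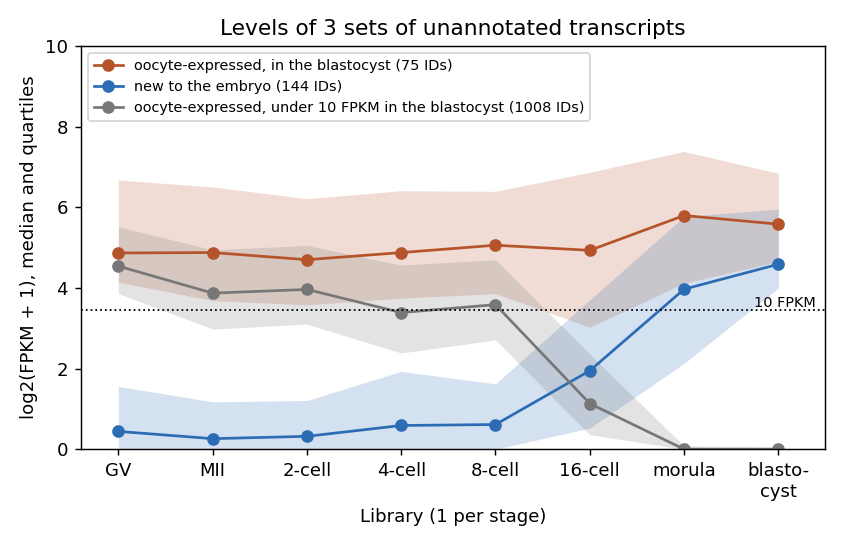
Median log2(FPKM + 1) per library, with shading from the lower to the upper quartile over IDs, for the 75 oocyte-expressed and 144 embryo-new transcripts of the blastocyst and for the 1008 new-gene IDs with oocyte expression but under 10 FPKM in the blastocyst. Libraries are not rescaled to a common sum. The oocyte-expressed line stays near its oocyte level up to the 16-cell library and is higher in the morula. The embryo-new line climbs from the 16-cell library on. The line of the 1008 drops at the 16-cell library and lies at 0 in the morula and blastocyst.

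The 75 oocyte-expressed transcripts held a near-level median FPKM up to the 16-cell stage, over embryo stages that the rule did not use. Before any rescaling of libraries, the morula median was higher. Their median was 28.1 FPKM at the GV stage and 28.4 FPKM at the MII stage. It was 24.97 FPKM in the 2-cell, 28.4 FPKM in the 4-cell, 32.3 FPKM in the 8-cell and 29.5 FPKM at the 16-cell stage. The morula median was 54.5 FPKM and the blastocyst median 46.8 FPKM. Numbered IDs chosen alike, 4151 in all, also had a higher morula median. Their medians were 59.4 FPKM in GV, 44.9 to 50.5 FPKM from MII to the 16-cell stage, 64.1 FPKM in the morula and 52.9 FPKM in the blastocyst. The course is thus not particular to the 75. The FPKM sum of the whole library differed too, with 1162574 at the 16-cell stage and 2501133 for the morula. As a share of that sum, the 75 together fell from 0.855% at the 16-cell stage to 0.706% for the morula and 0.627% for the blastocyst. A higher morula median thus depends on the scaling. Median-of-ratios scaling would leave it nearly unchanged, with factors of 0.984 for the 16-cell embryo and 0.992 for the morula. A common sum would lower it by the unequal sums above. The 1008 new-gene IDs that had oocyte expression but were under 10 FPKM in the blastocyst behaved otherwise. Their median was 22.3 FPKM at the GV stage, 11.0 FPKM at the 8-cell stage and 1.19 FPKM at the 16-cell stage, and 702 of the 1008 were listed at 0 in the morula. In the 16-cell library, 54 of the 75 (72.0%) were at 10 FPKM or more, against 106 of the 1008 (10.5%). In the morula it was 63 of the 75 (84.0%) against 22 of the 1008 (2.18%). The blastocyst value alone separates these sets, which favours a gap in the libraries close to it, so nothing is read from the contrast. The sets also differed in starting level: the median of the higher oocyte value was 49.3 FPKM in the 75, 25.1 FPKM in the 1008 and 72.5 FPKM in the 4151 numbered IDs with oocyte expression and a blastocyst level of 10 FPKM or more.

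A level median hid transcripts that moved in opposite ways. Of the 75, 35 (46.7%) were at 10 FPKM or more in all 8 libraries, against 2688 of the 4151 numbered IDs (64.8%). The other 40 were below that level in at least 1 library. Counting only the 5 embryo libraries before the blastocyst, 41 stayed at 10 FPKM or more in each and 34 were under it in 1 or more. In the 16-cell library 21 transcripts were under 10 FPKM (28.0%), against 18 in the 2-cell, 15 in the 4-cell, 13 in the 8-cell and 12 in the morula library. Of the 4151 numbered IDs, 17.4% were under 10 FPKM in the 16-cell library, which was their highest share too. Their shares in the 2-cell, 4-cell, 8-cell and morula libraries were 9.06%, 15.5%, 14.9% and 10.3%. The shares of the 75 there were 24.0%, 20.0%, 17.3% and 16.0%. Of the 21, 12 were back at 10 FPKM or more in the morula. Only the 16-cell value was low for 5, only the morula value for 2, and only those 2 values for another 5. For 3 transcripts all 5 embryo libraries were under 10 FPKM, and 9 were under 1 FPKM in at least 1 of them.

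**Figure D2:**
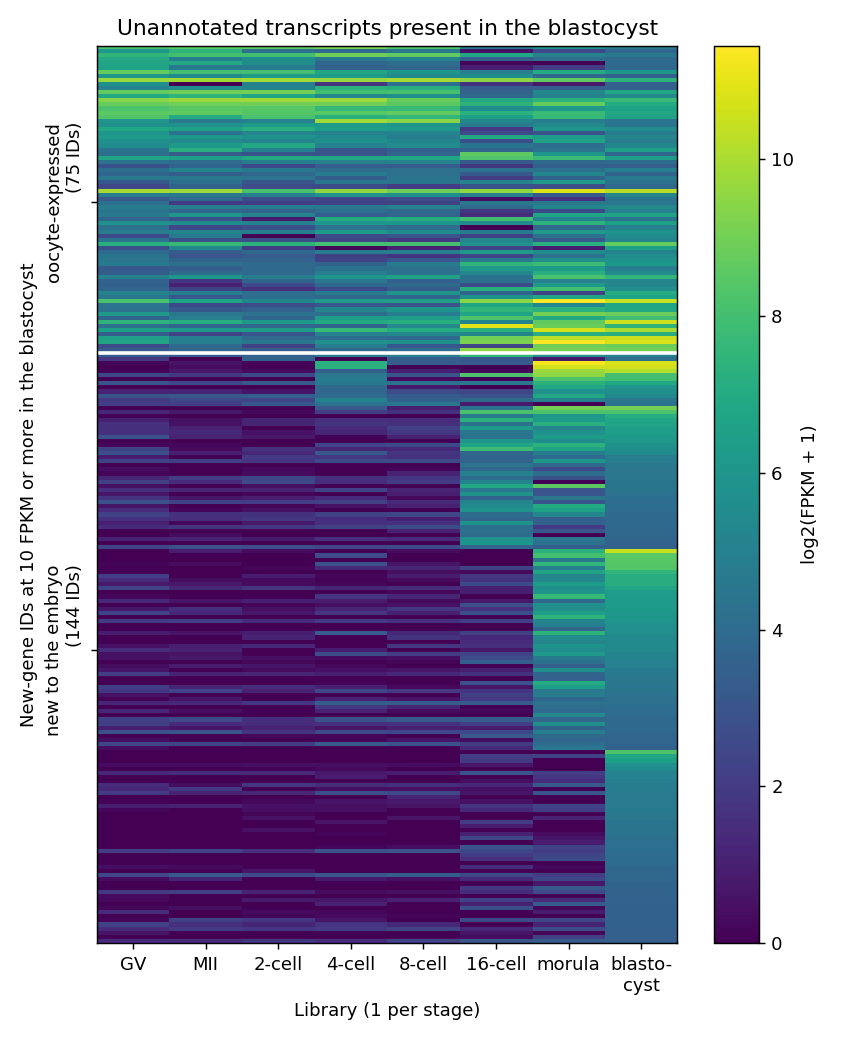
log2(FPKM + 1) of each of the 219 IDs (rows) in the 8 libraries (columns), with the 75 oocyte-expressed IDs above the white line, ordered from the greatest fall to the greatest gain between oocyte and blastocyst, and the 144 embryo-new IDs below it, ordered by the first library at 10 FPKM or more and then by blastocyst level. The 16-cell column is dark for many of the uppermost IDs, and blocks of IDs in the lower part become bright first in the 4-cell, 16-cell, morula or blastocyst column.

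Stages were compared with a rule of size, since no test was possible: an ID counted as higher or lower when 2 libraries differed by at least 2 in log2(FPKM + 1), a 4-fold difference on that scale, and reached 10 FPKM in the higher library. From the higher of the GV and MII values to the blastocyst, 15 of the 75 oocyte-expressed transcripts were higher, 13 lower and 47 in between. Over all 9807 IDs compared, 20.0% were higher and 39.3% lower, and nothing is read from the contrast because oocyte and blastocyst values chose the members. The balance turned with the scaling. Rescaling all libraries to a common sum made it 8 of the 75 higher and 23 lower, and with median-of-ratios scaling 16 and 9.

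Oocyte and blastocyst values formed the higher and lower groups, so their direction between those stages is built in. The median of the 15 higher transcripts was slightly above its GV value in MII, under it in the 2-cell library and above it from the 4-cell library on. Their medians were 21.3 FPKM at the GV stage, 40.9 FPKM at the 8-cell stage, 154 FPKM at the 16-cell stage, 474 FPKM in the morula and 453 FPKM in the blastocyst. Their 16-cell values ran from 4.23 to 2008 FPKM, above the higher oocyte value in 12 of the 15 and not above it in 3. The 13 lower ones had medians of 119 FPKM at the GV stage, 50.9 FPKM at the 8-cell stage, 11.7 FPKM at the 16-cell stage, 16.1 FPKM in the morula and 15.8 FPKM in the blastocyst. Their 16-cell values ran from 0.156 to 701 FPKM, and 9 of the 13 were still at 10 FPKM or more there. The remaining 47 had medians of 21.8, 24.4, 24.9, 46.5 and 37.3 FPKM in the same 5 libraries.

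Single transcripts show these paths. The most abundant of all 219 in the blastocyst was Bubalus_newGene_45258, an oocyte-expressed one. Bubalus_newGene_45258 had 101 FPKM in GV, 29.5 in MII, 21.4 in the 2-cell, 53.9 in the 4-cell, 51.9 in the 8-cell and 578 in the 16-cell library, then 2784 in the morula and 1705 in the blastocyst. Its 3 latest libraries all lay above its 5 earlier ones. The greatest decrease was that of Bubalus_newGene_4300, with 300.2 FPKM in GV, 363 in MII, 397 in the 2-cell, 546 in the 4-cell, 324 in the 8-cell, 29.0 in the 16-cell, 54.1 in the morula and 24.8 in the blastocyst library, a log2 difference of -3.82 from MII to blastocyst. All 5 libraries up to the 8-cell embryo were high and all 3 later ones low. Bubalus_newGene_4510 followed with -3.69, but its drop came early. It had 68.3 FPKM in GV, 173 in MII, 18.0 in the 2-cell, 14.1 in the 4-cell, 23.8 in the 8-cell, 0.442 in the 16-cell, 4.49 in the morula and 12.4 in the blastocyst library.

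The 2 steadiest transcripts were oocyte-expressed too. Bubalus_newGene_13080 had the smallest range of all 219, 1.00 log2 units over the 8 libraries. Its values were 16.6 FPKM in GV, 34.0 in MII, 23.8 in the 2-cell, 16.5 in the 4-cell, 17.5 in the 8-cell, 19.4 in the 16-cell, 18.1 in the morula and 30.1 in the blastocyst library. Neither the early nor the late libraries of this ID formed a group of their own. Next came Bubalus_newGene_6603, with a range of 1.39 log2 units, a lowest value of 14.7 FPKM in the 16-cell library and a highest of 40.3 FPKM in the blastocyst. The range that followed, 1.42 log2 units, was that of an embryo-new ID.

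**Figure D3:**
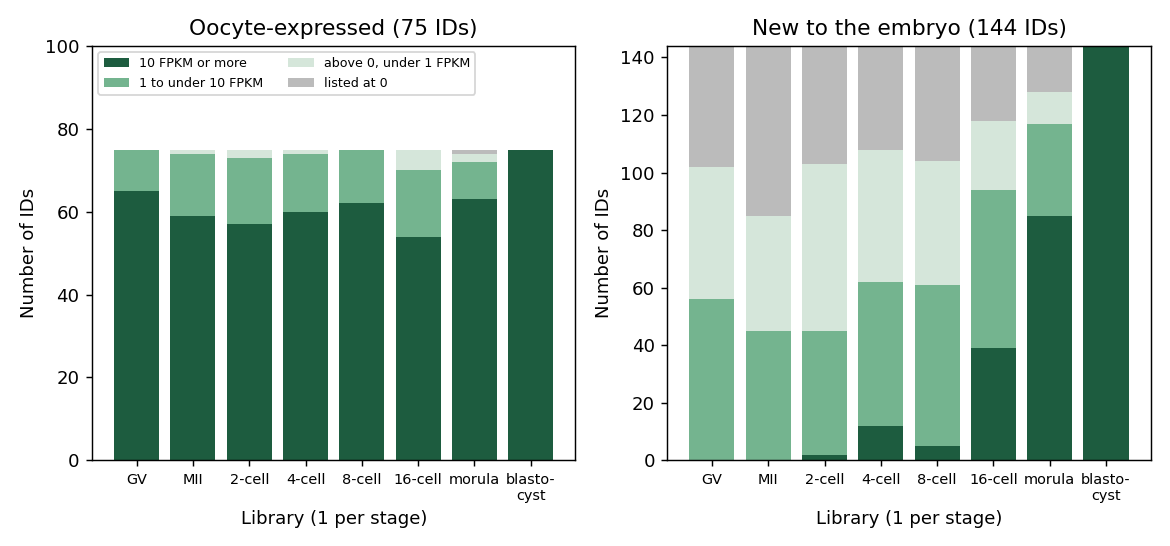
Number of IDs in each library at 10 FPKM or more, at 1 to under 10 FPKM, above 0 and under 1 FPKM, and listed at 0, for the 75 oocyte-expressed (left) and the 144 embryo-new transcripts (right); the blastocyst bars are at 10 FPKM or more by the rule. Embryo-new IDs at 10 FPKM or more number 5 in the 8-cell, 39 in the 16-cell and 85 in the morula library.

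The 144 embryo-new transcripts were scarce before the 16-cell stage. In the oocyte, 38 of them were listed at 0 in both libraries, 46 more stayed under 1 FPKM, and 60 reached 1 FPKM or more, of which 9 had 5 FPKM or more. The 84 under 1 FPKM make 58.3%, against 33.8% of the 1690 numbered IDs chosen in the same way (572). An exact 0 may be a failed estimate, and besides the zeros a few values of the table were vanishingly small: 4 to 12 of the 144 were above 0 but under 0.001 FPKM in each of the 6 libraries before the morula. The embryo-new median was 0.357 FPKM in the GV, 0.198 FPKM in the MII, 0.247 FPKM in the 2-cell, 0.503 FPKM in the 4-cell and 0.528 in the 8-cell library. It was 2.85 FPKM at the 16-cell stage, 14.6 FPKM in the morula and 23.0 FPKM in the blastocyst.

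Most of them first reached 10 FPKM in 1 of the 3 latest libraries. That level was first met by 2 of them at the 2-cell stage, by 11 at the 4-cell stage, by 0 at the 8-cell stage, by 35 (24.3%) at the 16-cell stage, by 49 (34.0%) as a morula and by 47 (32.6%) as a blastocyst. Among the 1690 numbered IDs the shares of the 3 last stages were 28.8%, 24.3% and 26.2%. The 2-cell, 4-cell and 8-cell libraries together accounted for 13 of the 144, and for 98, 217 and 35 numbered IDs. The last class is set partly by the rule, which demands 10 FPKM in the blastocyst. When all libraries were rescaled to a common sum, 34 of the 144 were first at 10 at the 16-cell stage, 32 as a morula and 25 as a blastocyst, while 38 then reached it in no library. Members chosen anew on the rescaled values would include 80 embryo-new ones.

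The 35 first seen at this level at the 16-cell stage were mostly at it in the morula too, and the rule demands it in the blastocyst. Their medians were 1.41 FPKM at the 8-cell stage, 22.0 FPKM at the 16-cell stage, 22.3 FPKM in the morula and 22.0 FPKM in the blastocyst. In the morula 25 of the 35 were still at 10 FPKM or more, while the other 10 lay between 0 and 9.60 FPKM there before their blastocyst value. The 49 that followed in the morula had a median of 1.71 FPKM at the 16-cell stage, with 22 of them under 1 FPKM, then 35.6 FPKM in the morula and 38.7 FPKM in the blastocyst. For 20 of the 49 the morula value was the higher of the last pair. The 47 that came last had a blastocyst median of 17.0 FPKM and a morula median of 1.12 FPKM. In the morula, 14 of these 47 were listed at 0, 9 were above 0 but under 1 FPKM and 24 had 1 FPKM or more, of which 6 had at least 5 FPKM. All other libraries were under 1 FPKM for 14 of the 47.

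Most of the earliest embryo-new transcripts had an interrupted course, and the rule demands that they be back at 10 FPKM in the blastocyst. There were 12 at 10 FPKM or more at the 4-cell stage, from 10.02 to 153 FPKM with a median of 23.0 FPKM. Only 4 of the 12 were at that level in the 8-cell and 4 at the 16-cell stage, but 11 were in the morula. Medians of the 12 were 8.10 FPKM at the 8-cell stage, 5.57 FPKM at the 16-cell stage, 138 FPKM in the morula and 86.1 FPKM in the blastocyst. This path, at 10 FPKM at the 4-cell stage, below it in the 8-cell and 16-cell libraries and above it in the morula, was taken by 7 of the 12 (58.3%) and by 75 of 277 numbered IDs chosen alike (27.1%). The path was picked out after its values were seen, and the difference between these shares was not tested.

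Some of the most abundant embryo-new transcripts of the blastocyst were of this kind. Bubalus_newGene_11365 had the greatest gain from oocyte to blastocyst, a log2 difference of 10.27. It was listed at 0 in GV, had 0.309 FPKM in MII, was listed at 0 in the 2-cell library, had 153 FPKM in the 4-cell library, was listed at 0 in the 8-cell and 16-cell libraries, and had 1613 FPKM as a morula and 1614 FPKM as a blastocyst. The 4-cell, morula and blastocyst libraries were thus far above the other 5. Bubalus_newGene_70664, with the next greatest gain (10.12) and the second-highest blastocyst level, had 0.140 FPKM in GV, 0.525 in MII, 0.158 in the 2-cell, 151 in the 4-cell, 9.20 in the 8-cell, 8.24 in the 16-cell, 2502 in the morula and 1697 in the blastocyst library. It was high in the same 3 libraries, with a low level left in the 8-cell and 16-cell embryo. From oocyte to blastocyst, 130 of the 144 passed the rule of size, a count that the choice of members largely fixes.

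In all, 9 transcripts were at 1000 FPKM or more in the blastocyst. The 5 oocyte-expressed ones among these 9 had 91.8 to 982 FPKM at the GV stage, 34.7 to 747 FPKM at the 16-cell stage and 406 to 2784 FPKM in the morula. The 4 embryo-new ones had at most 0.893 FPKM in an oocyte library and at most 8.24 FPKM at the 16-cell stage, but 157 to 2502 FPKM in the morula. These ranges of 9 IDs picked by blastocyst level did not overlap in the 16-cell library and did overlap in the morula. They also overlapped in the 4-cell library, with 16.3 to 746 FPKM for the oocyte-expressed and 0 to 153 FPKM for the embryo-new ones. The oocyte level divided the 9 IDs, so nothing is read from these ranges. The whole sets did overlap at the 16-cell stage. Embryo-new values reached 304 FPKM there, and 21 oocyte-expressed IDs were under 10 FPKM.

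**Figure D4:**
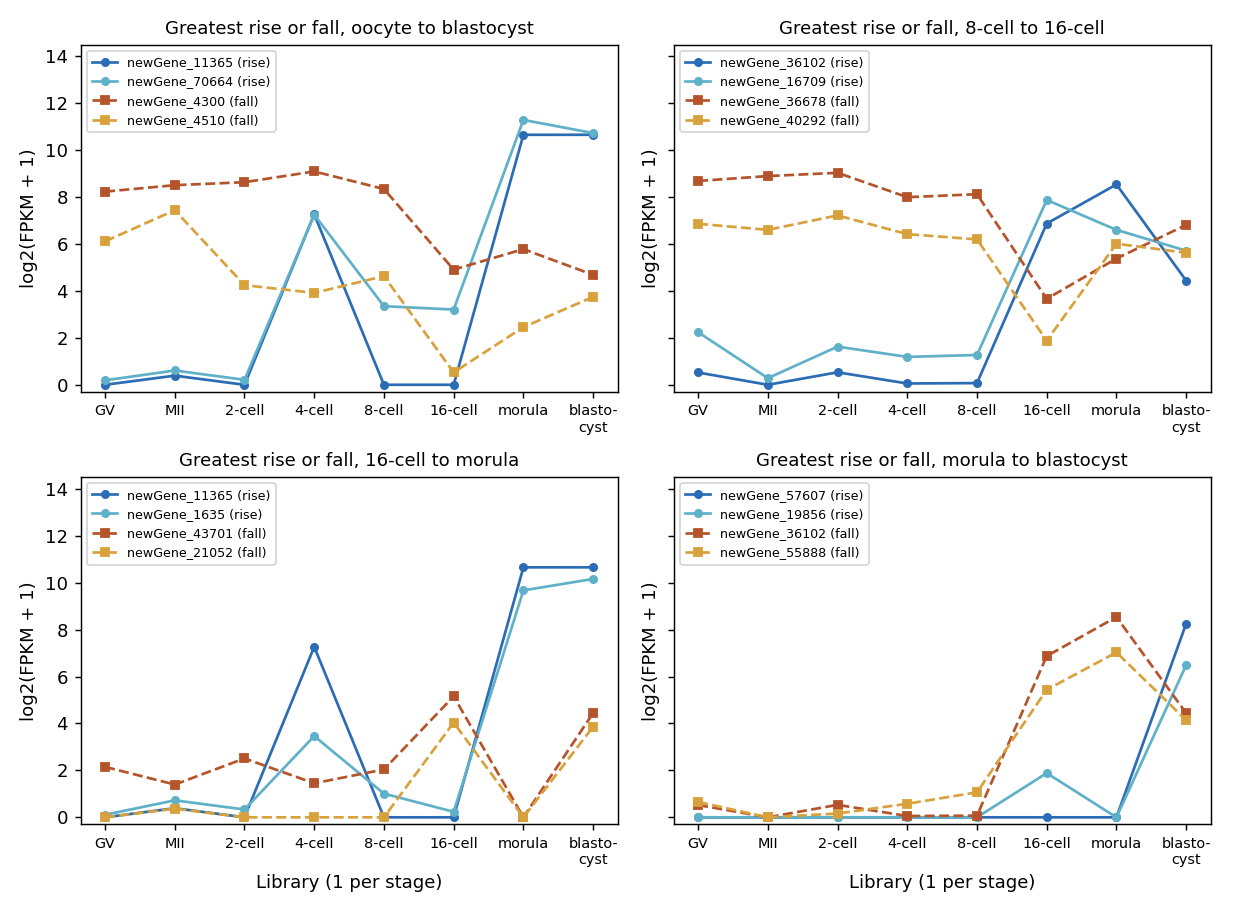
log2(FPKM + 1) over the 8 libraries of the members with the greatest rise (solid lines, circles) and the greatest fall (dashed lines, squares) in 4 comparisons, from the higher oocyte value to the blastocyst, from the 8-cell to the 16-cell embryo, from the 16-cell embryo to the morula and from the morula to the blastocyst. newGene_11365 has a separate peak of 153 FPKM in the 4-cell library, and newGene_43701 and newGene_21052 are high in the 16-cell and blastocyst libraries but not in the morula between them.

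Up to the 8-cell stage, at most 14 of the 219 were higher and at most 5 lower at any step between consecutive libraries. From GV to MII, 3 of 75 compared were higher and 3 lower, where 2.71% and 7.45% of all IDs were. From MII to the 2-cell embryo it was 2 higher and 4 lower of 67, against 2.16% and 2.19% of all IDs. Nothing is read from these pairs, since the oocyte values divided the members. At the 2-cell to 4-cell step 14 of 77 compared were higher and 2 lower, against 4.12% and 5.83% of all IDs. Of the 14, 8 were embryo-new and 6 oocyte-expressed, the latter of 64 compared (9.38%). Only 13 embryo-new transcripts were compared here, 11 of them through the 4-cell value alone, which nearly set their direction, so nothing is read for them. From the 4-cell to the 8-cell embryo, 2 were higher and 5 lower of 76, against 1.10% and 2.08% of all IDs, and the 5 lower ones were all embryo-new. Again 13 embryo-new transcripts were compared, 8 through the 4-cell value alone, which nearly set a decrease.

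At the 8-cell to 16-cell step, of the 109 members compared, 47 had a higher and 20 a lower 16-cell value, against 24.0% higher and 27.2% lower of all 8657 IDs compared. The median difference of the 109 was 1.22 log2 units and that of all IDs -0.31. Among embryo-new transcripts, 41 were compared, 33 were higher and 1 lower, and over all 144, compared or not, 94 were above their 8-cell value, 33 below and 17 equal. An embryo-new ID that was low up to the 8-cell stage could enter this comparison only through a high 16-cell value, so its direction there was nearly set. Among the 75 oocyte-expressed transcripts, 68 were compared, 14 were higher and 19 lower, with a median difference of -0.94 log2 units. Rescaling to a common sum moved the median of all IDs by -0.37 log2 units and gave 10 higher and 24 lower.

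Bubalus_newGene_36102 showed the greatest gain at this step, with 0.438 FPKM in GV, a value listed at 0 in MII, 0.446 FPKM in the 2-cell, 0.0393 in the 4-cell, 0.0508 in the 8-cell, 116 in the 16-cell, 371 in the morula and 20.7 in the blastocyst library. It was high in the 3 latest libraries and highest in the morula, and its log2 difference from the 8-cell to the 16-cell embryo was 6.80. Bubalus_newGene_16709 followed with 6.61, from 1.41 to 234 FPKM, and then had 96.2 FPKM in the morula and 51.6 FPKM in the blastocyst. Its 5 earlier libraries lay between 0.216 and 3.73 FPKM. The greatest decreases were of oocyte-expressed transcripts that partly came back. Bubalus_newGene_36678 had 412 FPKM in GV, 476 in MII, 524 in the 2-cell, 254 in the 4-cell, 278 in the 8-cell, 11.7 in the 16-cell, 40.7 in the morula and 112 in the blastocyst library, a log2 difference of -4.46 at this step. Its 16-cell value was the lowest of the 8, and each later value was higher than the one before. Bubalus_newGene_40292 had 72.4 FPKM in the 8-cell, 2.68 in the 16-cell, 63.6 in the morula and 48.5 in the blastocyst library (a log2 difference of -4.32 at this step), with 84.7 to 148 FPKM in the 4 libraries before. The 16-cell library alone was low for this ID.

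Between the 16-cell embryo and the morula, 161 members were compared, and 69 were higher and 10 lower, against 19.1% higher and 18.2% lower of all 7742 IDs compared. Embryo-new transcripts made up 55 of the 69 and 6 of the 10, and oocyte-expressed ones 14 and 4. Of the 95 embryo-new transcripts compared, 56 reached 10 FPKM in the morula library alone of the pair, which nearly set their direction. Over all 219, 148 were above their 16-cell value, 63 below and 8 equal. Neither value enters the rule, but a demand for 10 FPKM in the blastocyst can favour IDs that are already high in the library before it. Rescaling to a common sum shifted the median difference of all IDs by -1.055 log2 units and left 42 members higher and 26 lower, with 8 and 10 among the oocyte-expressed. Median-of-ratios scaling, with a shift of -0.011 log2 units, gave 69 and 10.

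The greatest gains into the morula were those of Bubalus_newGene_11365, described above, with 10.66 log2 units, and of Bubalus_newGene_1635 with 9.44. Bubalus_newGene_1635 had 0.0787 FPKM in GV, 0.652 in MII, 0.260 in the 2-cell, 10.02 in the 4-cell, 1.01 in the 8-cell, 0.177 in the 16-cell, 816 in the morula and 1144 in the blastocyst library. It too had a higher 4-cell value than its neighbours. The greatest decreases were followed by a return in the blastocyst. Bubalus_newGene_43701 had 1.63 to 4.70 FPKM up to the 8-cell stage, 34.7 FPKM at the 16-cell stage, 0.00069 FPKM in the morula and 20.8 FPKM in the blastocyst. Bubalus_newGene_21052 had 15.4 FPKM in the 16-cell library and 13.5 FPKM in the blastocyst, was listed at 0 in the morula, and had at most 0.291 FPKM in the 5 earlier libraries. For both, the morula library stands apart from its neighbours, and a failed estimate there cannot be told apart from a low level.

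**Figure D5:**
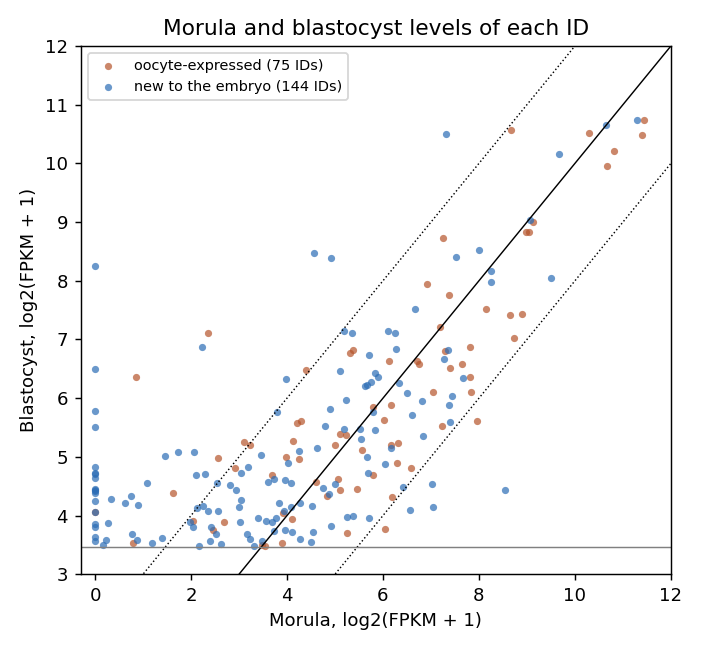
log2(FPKM + 1) in the morula (horizontal) and the blastocyst (vertical) for the 75 oocyte-expressed and 144 embryo-new IDs; the solid line marks equal values, the dotted lines a difference of 2 log2 units, and the grey line the 10 FPKM that the rule demands in the blastocyst. Embryo-new IDs line the left edge, where the morula value is listed at or near 0, and 99 of the 219 IDs lie within 1 log2 unit of the solid line.

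Between the morula and the blastocyst, 99 of the 219 (45.2%) lay within 1 log2 unit, 36 oocyte-expressed and 63 embryo-new. Of the 5841 numbered IDs at 10 FPKM or more in the blastocyst, 55.9% did. By the rule of size, 49 were higher and 6 lower in the blastocyst, where 11.4% and 6.43% of all 7050 IDs compared were, and nothing is read from this because the blastocyst value chose the members. With libraries rescaled to a common sum, 27 were higher and 6 lower. The highest of the 8 values lay in the blastocyst for 107 of the 219, in the morula for 57, at the 16-cell stage for 24 and in an earlier library for the rest. Peaks were taken on unscaled FPKM and were not recounted after rescaling. The FPKM sums were largest in the morula (2501133) and the blastocyst (2239886), which can favour peaks there. Of the 144 embryo-new transcripts, 89 peaked in the blastocyst, 38 in the morula and 15 at the 16-cell stage. The blastocyst share of 61.8% compares with 54.0% of the 1690 numbered IDs chosen alike, and the rule, which asks for a low oocyte and a high blastocyst value, largely fixes it. The 75 oocyte-expressed ones peaked in the blastocyst in 18 cases (24.0%, against 16.7% of the 4151 numbered IDs). Their other peaks were 19 in the morula, 9 at the 16-cell stage, 2 in the 8-cell, 6 in the 4-cell and 7 at the 2-cell stage, 8 in the MII and 6 at the GV stage.

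A group of 32 transcripts, all embryo-new, was at least 2 log2 units higher in the blastocyst than in each of the other 7 libraries. They make 14.6% of the 219, against 5.92% of the 5841 numbered IDs; among embryo-new numbered IDs it was 16.8%. The blastocyst value chose the members and the oocyte limit favours embryo-new ones here, so nothing is read from these shares. Without the morula library the group would hold 88. The greatest gain from the morula was that of Bubalus_newGene_57607, listed at 0 in all 7 libraries from GV to morula and at 305 FPKM in the blastocyst. Bubalus_newGene_19856 was listed at 0 in GV, MII, the 2-cell, 4-cell and 8-cell embryo, had 2.70 FPKM at the 16-cell stage, was listed at 0 in the morula and had 88.9 FPKM in the blastocyst. Both rest on a single library. The greatest decreases, -4.10 log2 units for Bubalus_newGene_36102 from 371 to 20.7 FPKM and -2.89 for Bubalus_newGene_55888 from 130 to 16.6 FPKM, were of embryo-new transcripts that were highest in the morula. Bubalus_newGene_55888 had at most 1.09 FPKM up to the 8-cell stage and 42.4 FPKM at the 16-cell stage.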

How the data were processed

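RNA sequencing values of 8 libraries, 1 per stage, were used. The authors deposited 1 table of FPKM values, as its name states, and no source used here gives the aligner, assembler, genome build, annotation or filters. The labels' extraction text describes a different tissue and was set aside. Titles gave the stage, and descriptions linked columns to samples. Depth is unknown, so no counting interval is given, and an FPKM level is relative within its library.

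From the deposited FPKM, members were selected and counted, and values were compared as log2(FPKM + 1), which understates the change of low IDs. A difference of 2 log2 units, with 10 FPKM or more in one library of the pair, served as the rule of size. No test was possible with 1 library per stage. None of the 28659 IDs was found in RefSeq's gene table for the assembly NDDB_SH_1 (0 matches), so no gene names, lists, markers or sequences are given.

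Named IDs were, among members past the rule of size, the 2 greatest gains and 2 greatest decreases in 4 comparisons, the 2 smallest ranges and the 2 most abundant in the blastocyst. Members, lists and rules were chosen with earlier results of these data known. Alternatives were a pseudocount of 0.1, other minimums, rescaling to a sum of 1000000, median-of-ratios scaling and leaving out libraries. Python 3.11.15, pandas 2.3.3 and numpy 2.4.6 were used, and the counting was tested on simulated data.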

Additional observations from a re-analysis of the deposited data

How the results depend on the processing

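No paired analysis was possible because each stage has 1 library. Raising a minimum leaves fewer IDs by construction and lowering it more; for the other moves below the cause was not tested. The members numbered 330 at a blastocyst minimum of 5 FPKM, 110 at 30 FPKM and 134 after rescaling to the same sum; embryo-new ones were then 225, 59 and 80. An oocyte limit of 1 FPKM gave 135 oocyte-expressed and 84 embryo-new members, and 10 FPKM in both oocyte libraries gave 49 oocyte-expressed. First libraries at 5 FPKM were the 2-cell embryo for 6, the 4-cell for 21 and the 8-cell for 2; at 30 FPKM they were the 2-cell for 0, the 4-cell for 3, the 16-cell for 18 and the blastocyst for 17. After rescaling, 2 were first at the 8-cell stage, 32 as a morula and 25 as a blastocyst, and median-of-ratios scaling 0 in the 2-cell embryo. At 1 FPKM, 66 oocyte-expressed members were held in every library; leaving out 1 of the 5 embryo libraries gave 35 to 39. Members 4-fold above all else in the blastocyst numbered 37 to 88 when the 16-cell or the morula library was left out.

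With a minimum of 30 FPKM, 1 member was lower from GV to MII, 1 higher from MII to 2-cell, 8 higher and 1 lower from 2-cell to 4-cell, 0 higher and 2 lower from 4-cell to 8-cell, 31 higher and 12 lower from 8-cell to 16-cell, 17 higher from morula to blastocyst and 73 higher from oocyte to blastocyst. With no minimum, 9 were lower from 4-cell to 8-cell. Rescaling to the same sum gave 42 higher and 26 lower from 16-cell to morula, 27 higher from morula to blastocyst, and 77 higher and 23 lower from oocyte to blastocyst, where it shifted the median of all IDs by -0.90 log2 units. Median-of-ratios scaling gave 1 higher from MII to 2-cell, 1 lower from 2-cell to 4-cell and 1 higher from 4-cell to 8-cell. With a pseudocount of 0.1 no count over all members moved by over 1.5 times. Of the log2 differences of named IDs, none changed sign or fell below the rule of size under the pseudocount and the 2 scalings. Since depth is unknown, no counting limit can be set for low values.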

Other observations

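The numbers within the new-gene IDs are not paired with positions in the table, and what they stand for is not given. Among the 219 members there were 9 pairs with consecutive numbers, which involve 17 IDs. In 6 pairs both IDs were embryo-new, in 1 both were oocyte-expressed, and the other 2 were mixed. Of all members 65.8% were embryo-new, and no like count over all new-gene IDs is given, so nothing is read from these pairs. Of the 219, 173 had a consecutive number somewhere in the table.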
